A study of Arabidopsis thaliana with 6 samples.

Results

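Jasmonates are lipid-derived hormones that plants make after wounding and under attack. Their synthesis starts from linolenic acid in the chloroplast and is finished in the peroxisome, where OPCL1 attaches coenzyme A to the precursor OPC-8:0 so that its side chain can be shortened by beta-oxidation. The finished jasmonic acid is either conjugated to isoleucine, which gives the hormone that the COI1 receptor binds, or hydroxylated by the jasmonate-induced oxygenases, a small family of 2-oxoglutarate- and iron-dependent enzymes known in Arabidopsis as JOX1 to JOX4. Hydroxylation takes jasmonic acid out of the pool available for conjugation, so OPCL1 stands on the synthesis side of the pathway and the oxygenases on the turnover side.

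The 5 genes described here are AT3G11180 (JOX1), AT5G05600 (JOX2), AT3G55970 (JOX3, listed as JRG21, jasmonate-regulated gene 21), AT2G38240 (JOX4) and AT1G20510 (OPCL1). Each was represented by the probe set that the platform's annotation assigned to that gene alone, which gave 1 probe set per gene and 5 of the 22810 on the array. The gene table gives the names JRG21 and OPCL1, and the JOX names are the family names in general use.

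Seedlings of Arabidopsis Col-0 (stock N1093), taken whole, were grown on 0.8% agar at 20 °C with 16 h of light and 8 h of darkness, to developmental stage 1.04. The ozone group was exposed for 6 h to 500 ppb ozone, which breaks down to reactive oxygen species inside leaves. The control group received air scrubbed over charcoal and purafill for the same 6 h. Both gases were humidified and led into closed chambers within the growth cabinet, and RNA was extracted directly afterwards, so every value stands for 1 time point and a mixture of all organs. Each group had 3 samples, and each sample was hybridized to 1 Affymetrix ATH1 array.

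Values are MAS5 signals, a linear brightness per probe set that was scaled array by array. The arrays had median signals of 41.7 to 49.5, and precision is limited by their number. Groups were compared with limma on log2 signals, with p-values adjusted over all 13648 probe sets whose mean log2 signal was at or above the 40th percentile, a signal of 31.2. Changes were common on these arrays: 28.0% of the tested probe sets passed an adjusted p of 0.05, 13.0% higher and 14.9% lower, and the median log2 fold change over the 13648 was -0.15. Which direction held more calls changed with the processing. Calls upward made up 46.6% in this fit, 53.3% after each array was centred on its median, 55.9% without ozone replicate 2 and 38.8% with the replicate number as a block. Leaves and roots were both represented. Of the 5 mesophyll genes measured (LHCB4.1, LHCB4.2, PRK, SBPASE and RCA) 3 fell, and their summed signal was 9486 to 14054 in controls and 5909 to 8455 after ozone. Of the 3 root genes, 1 fell (EXPA7, beside PYK10 and EXPA18), with summed signals of 2235 to 3440 and 1857 to 2478. Of the 2 guard cell genes (FMA and AT1G22690) 0 passed by limma, with 0 at an unadjusted p under 0.05, and no phloem gene was measured. With the replicate number as a block 5 mesophyll, 2 root and 1 guard cell genes fell, in a fit that called 30.0% of tested probe sets lower. Without the filter and without the block, 1 mesophyll and 1 root gene fell, in a fit that called 1829 of 22746 probe sets lower. Reference genes (AT2G28390, AT4G34270 and PEX4) ranged from -0.21 to 0.09 in log2 fold change, and 0 of 3 passed by limma, again with 0 at an unadjusted p under 0.05. These markers come from bulk RNA, in which fewer cells of a type and less RNA per cell cannot be told apart, and their part in the results below was not tested.

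Transcripts of 3 of the 4 jasmonate oxygenase genes and of OPCL1 were higher after ozone, and the signal of the remaining oxygenase gene, JOX1, was low in both groups. Of the 5 genes, 4 passed the filter on dim probe sets, and all 4 of these rose. JRG21 and JOX4 passed it only through their ozone signals, as their control means of 9.13 and 23.4 were below the filter level. In a fit without the filter all 5 genes were tested and the same 4 rose, against 8.34% of 22746 probe sets higher in that fit. The ozone arrays lay above the control arrays without overlap for these 4 genes, which held for 18.2% of the tested probe sets.

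**Figure D1:**
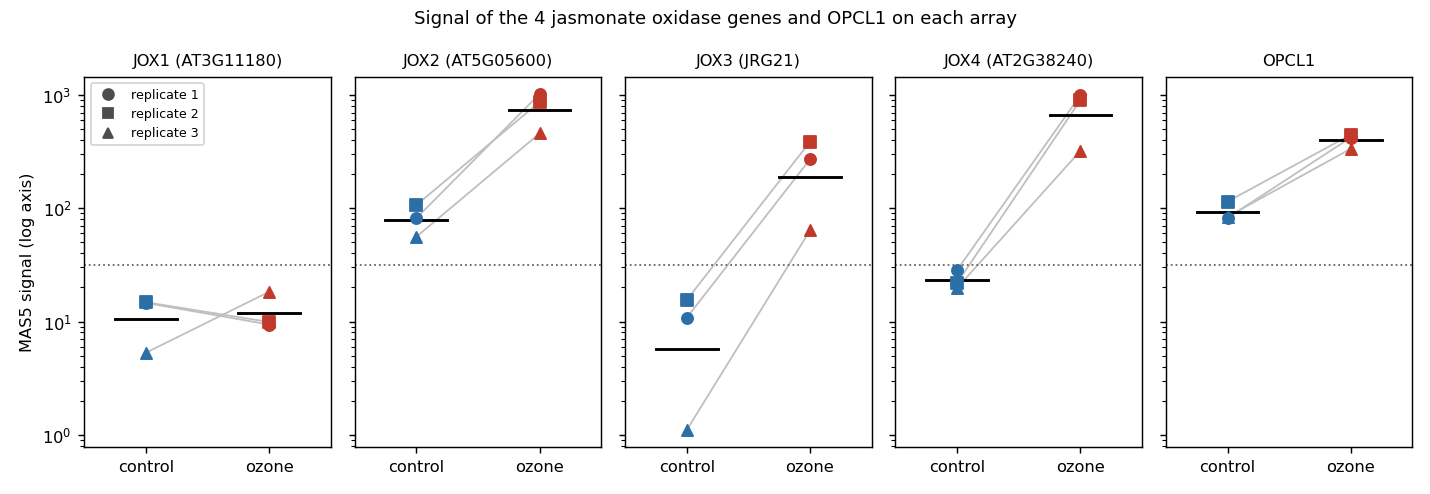
MAS5 signal (log axis) of the 5 genes on each of the 3 control (blue) and 3 ozone (red) arrays, with marker shape for the replicate number, grey lines joining equal numbers, black bars at the mean of the log2 signals and a dotted line at the filter level of 31.2. The groups lie apart for JOX2, JOX3, JOX4 and OPCL1 and overlap for JOX1, and ozone replicate 3 is the lowest ozone array for the 4 genes that lie apart.

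AT2G38240 (JOX4) had signals of 28.5, 21.9 and 19.8 in control replicates 1, 2 and 3 and of 994.6, 899.6 and 320.9 in ozone replicates 1, 2 and 3. The control arrays were close to each other and below the filter level, whereas ozone replicate 3 lay well below the other ozone arrays, though still 11.3 times the highest control. From a mean of 23.4 ± 4.54 to 738 ± 365 (SD, n = 3 each), the log2 fold change was 4.83 (SE 0.411, 95% confidence interval 3.89 to 5.78, limma adjusted p = 0.000253), a 28.5-fold rise of the geometric mean. With 16 added to every signal, which damps folds against dim groups, it was 17.3-fold (log2 fold change 4.11). Its rank among the tested probe sets by log2 fold change was 28, or 22 with 16 added. These ranks depend on the filter, which JOX4 passed only through its ozone signals. Among genes below the filter, AT2G38250 and BSMT1 had log2 fold changes of 5.84 and 4.85, or 2.00 and 2.58 with 16 added.

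JRG21 (JOX3) encodes an oxygenase of the same family and gave 10.8, 15.5 and 1.10 in the controls and 270.1, 385.6 and 63.7 after ozone. Replicate 3 was the lowest array of both groups, and even so the lowest ozone signal was above the highest control signal. The means were 9.13 ± 7.34 and 240 ± 163 (SD, n = 3 each). The log2 fold change was 5.05 (SE 1.03, 95% confidence interval 2.66 to 7.43, limma adjusted p = 0.00947), or 33.03-fold. This size rests on control signals near the lower end of the scale. It was 14.5-fold without control replicate 3, 54.5-fold without control replicate 2 and 56.7-fold without ozone replicate 3, and 8.59-fold with 16 added to every signal, with the rise called in each case. The adjusted p was highest, at 0.0468, without ozone replicate 2.

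AT5G05600 (JOX2) was above the filter level on every array. Its signals were 81.5, 106.5 and 55.9 in the controls and 1021, 867.3 and 457.5 after ozone, so the lowest ozone array was 4.30 times the highest control array. Replicate 3 was again the lowest array of each group. The means were 81.3 ± 25.3 and 782 ± 291 (SD, n = 3 each), and the log2 fold change was 3.24 (SE 0.342, 95% confidence interval 2.45 to 4.02, limma adjusted p = 0.000588) or 9.42-fold. Since its controls were above the filter level, adding 16 to every signal changed the log2 fold change only to 2.99.

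AT3G11180 (JOX1), the remaining member of the family, stayed dim. It had signals of 14.6, 14.8 and 5.30 in the controls and of 9.40, 9.90 and 18.3 after ozone, and the groups overlapped. Ozone replicate 3 was the highest array for this gene, unlike for the other oxygenases. The means were 11.6 ± 5.43 and 12.5 ± 5.00 (SD, n = 3 each), below the filter level on every array, so the gene was not tested in the main comparison. In the fit without the filter its log2 fold change was 0.19 with a 95% confidence interval of -1.02 to 1.40 (limma adjusted p = 0.850). That interval reaches from a fall to a rise of more than 2-fold, so the arrays do not show that JOX1 was unchanged. Detection calls were not used here, and whether JOX1 was above background was not tested.

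OPCL1, the acyl-CoA ligase of jasmonate synthesis, gave 82.0, 114.5 and 84.2 in the controls and 421.2, 446.3 and 335.2 after ozone. It had the tightest ozone signals of the 4 genes that rose, and the lowest of them was 2.93 times the highest control. The means were 93.6 ± 18.2 and 401 ± 58.3 (SD, n = 3 each), and the log2 fold change was 2.11 (SE 0.195, 95% confidence interval 1.66 to 2.56, limma adjusted p = 0.000330), or 4.30-fold. Its rank among the tested probe sets by log2 fold change was 380. Rises of at least 4-fold were called at 3.15% of tested probe sets and rises of at least 8-fold at 1.17%. OPCL1 is thus among the former, and JOX2, JRG21 and JOX4 are among the latter. JRG21 and JOX4 were in the tested set only through their ozone signals. In the fit without the filter their limma adjusted p-values were 0.0179 and 0.000549. With 64 added to every signal the rises of JOX2, JRG21 and JOX4 were 5.62-fold, 3.67-fold and 8.39-fold. The shares of such rises were not worked out for these 2 settings.

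**Figure D2:**
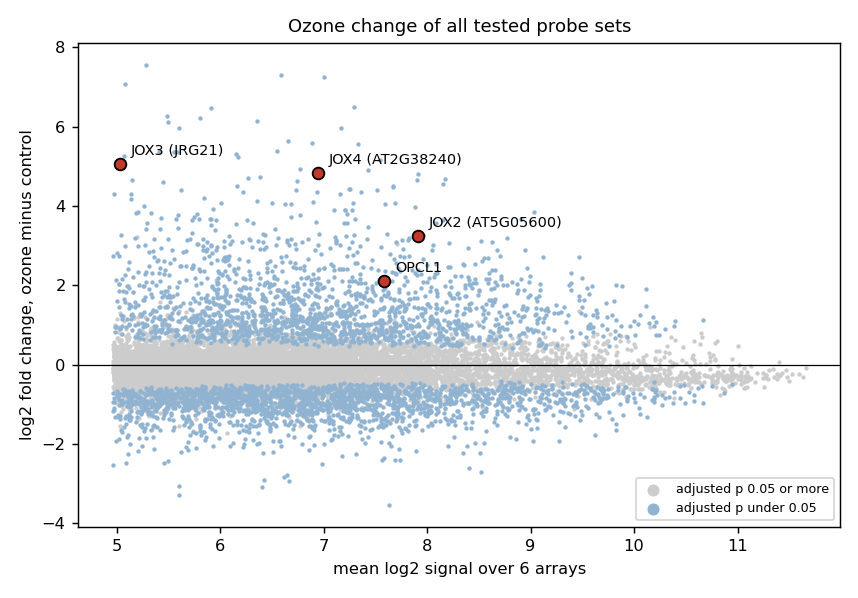
Log2 fold change (ozone minus control) against mean log2 signal over the 6 arrays for the 13648 tested probe sets, blue where the adjusted p was under 0.05 and grey otherwise, with the 4 tested genes in red. OPCL1, JOX2, JOX4 and JOX3 (JRG21) lie at 2.11, 3.24, 4.83 and 5.05, and JOX3 (JRG21) lies near the dim edge of the plot.

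The 3 sample numbers occur in both groups. The folds between equally numbered arrays are given here, with numbers 2 and 3 matched by the titles alone. For JOX2 this fold was 12.5, 8.14 and 8.18 in numbers 1, 2 and 3, and for OPCL1 it was 5.14, 3.90 and 3.98. JOX4 had 34.9, 41.1 and 16.2. JRG21 had 25.01, 24.9 and 57.9, the last against the control signal of 1.10. JOX1 had 0.644, 0.669 and 3.45, and so went down in numbers 1 and 2 and up in number 3. How numbers 2 and 3 are matched is not settled by the arrays, and these folds depend on it. With control replicates 2 and 3 exchanged, JRG21 would set 385.6 against 1.10 and 63.7 against 15.5. JOX1 would then set 9.90 against 5.30 and 18.3 against 14.8, a rise in each.

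Ozone replicate 3 was the lowest ozone array for all 4 genes that rose. That array was also the lowest of the ozone arrays at 60.6% of the 1777 probe sets called higher, and at 68.6% of the 430 that rose at least 4-fold, so the 4 genes followed the commonest pattern among the probe sets that rose. Without ozone replicate 3 the log2 fold changes were 3.58 for JOX2, 5.83 for JRG21, 5.35 for JOX4 and 2.23 for OPCL1.

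The genes were next compared with each other. The log2 difference between 2 genes was taken within each array, and its mean in the ozone group was set against its mean in the controls by an exact two-sided permutation test. With 3 arrays against 3 this test cannot give a p below 0.1, so it cannot pass 0.05, and the 10 pairs are described by size and overlap. JOX4 rose by 2.73 more than OPCL1 on the log2 scale, and JRG21 by 2.94 more. JOX2 rose by 1.13 more than OPCL1. In these 3 pairs the within-array differences did not overlap between the groups, and the exact permutation p was 0.1 (0.125 adjusted over the 10 pairs). JOX2 rose by less than JOX4, with a difference of -1.60 and no overlap. JRG21 and JOX4 differed by 0.21, with overlap and an exact permutation p of 0.9. JOX2 and JRG21 differed by -1.81, with overlap and an exact permutation p of 0.2. This test leaves out the pairing by number. Between equally numbered arrays JOX2 minus JRG21 changed by -0.997, -1.61 and -2.82, whereas JRG21 minus JOX4 had both signs. The shared sign for JOX2 minus JRG21 depends on how numbers 2 and 3 are matched, which the arrays do not settle. That difference was 2.84 in ozone replicate 3 and 2.78 in control replicate 2, so matching these arrays would give no fall. Of the 10 pairs 8 had no overlap, but 4 of these hold JOX1, which was below the filter level on every array, and mostly restate the change of the other gene.

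The order of JRG21 among the oxygenases depended on how dim signals were treated. JRG21 had the highest log2 fold change without an added constant. With 16 added to every signal JOX4 had 4.11, JRG21 3.10, JOX2 2.99 and OPCL1 1.93. With 64 added the values were 3.07 for JOX4, 2.49 for JOX2, 1.88 for JRG21 and 1.56 for OPCL1. JOX4 was above JOX2 and JOX2 above OPCL1 in these 3 settings.

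**Figure D3:**
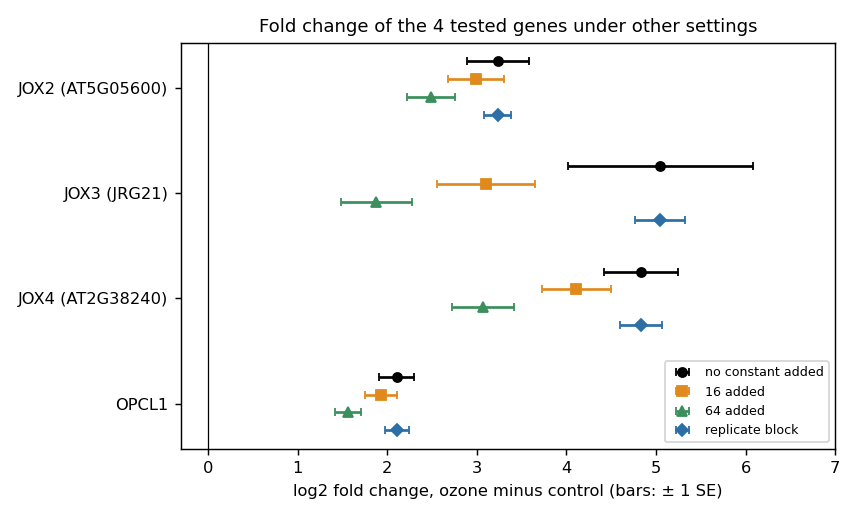
Log2 fold change (ozone minus control, bars ± 1 SE of the limma fit) of the 4 tested genes with no constant added, with 16 or 64 added to every signal, and with the replicate number as a block. JOX3 (JRG21) moves from 5.05 to 1.88 with 64 added, and the SE of JOX3 falls from 1.03 to 0.278 with the block.

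Across the 6 arrays the log2 signals of JOX2, JRG21, JOX4 and OPCL1 correlated with each other at Pearson r of 0.919 to 0.988, and those of JOX1 correlated with the other 4 at 0.085 to 0.344. The arrays fall into 2 groups that lie apart for the 4 genes, so a high r mainly restates the difference between the groups. Among 7309 other tested probe sets with 1 gene, r exceeded 0.95 at 366 with JOX2 (5.01%), 56 with JRG21 (0.766%), 462 with JOX4 (6.32%) and 381 with OPCL1 (5.21%). The patterns most like JOX4 over the 6 arrays were those of AT5G42150 (r = 0.999, log2 fold change 0.72), AT3G51450 (0.999, 3.27) and AT1G76470 (0.999, 3.65). For OPCL1 they were AT1G23850 (r = 0.999, log2 fold change 2.74), the aldo-keto reductase gene AT1G60730 (0.999, 3.91) and AT4G36640 (0.998, 1.06). JOX2 was most like AT3G52480 (r = 0.997, log2 fold change 0.51), the proline dehydrogenase gene AT5G38710 (0.996, 2.71) and AT3G05830 (0.995, 0.65). AT3G52480 was not called in the main fit. JRG21 was most like AT1G20310 (r = 0.993), AT5G16680 (0.991) and SDP1, a lipase of storage oil breakdown (0.990). Their log2 fold changes of 0.67, 0.41 and 0.41 did not pass in the main fit. The nearest patterns to JOX1 were those of AT3G07280 (r = 0.984), AT5G49680 (0.953) and AT2G05600 (0.9502), with log2 fold changes of 0.03, -0.03 and 0.01.

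The rest of the jasmonate pathway was only thinly covered. Of 81 other listed genes of jasmonate synthesis, conjugation and turnover, signalling and response, 13 had a probe set that named them alone and 7 passed the filter. Of these 7, 2 rose, 0 fell and 5 did not pass. Over all tested probe sets 13.0% were called higher and 14.9% lower. With so few genes tested, the count is no result about the pathway. Their median log2 fold change was 0.74, which is the value of the gene PLIP3 described below, beside -0.15 over all tested probe sets. The lists were chosen with earlier results of these data known, and a shift of the pathway was not tested. LOX2, AOS, the AOC genes and OPR3 of the synthesis steps before OPCL1, the COI1 receptor gene, MYC2 and the JAZ repressor genes were not analysed here.

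The same 2 genes were the only calls in the synthesis list, in which 4 genes were tested. Over all tested probe sets 13.0% were called higher, and 2 of 4 is no result about synthesis. AT1G70480 (JASSY), a chloroplast envelope protein that exports the precursor OPDA, had 110.1, 72.5 and 82.0 in the controls and 284.3, 266.9 and 120.4 after ozone. The groups did not overlap, and the log2 fold change was 1.27 (SE 0.340, limma adjusted p = 0.0272). Its adjusted p was 0.0698 without ozone replicate 1, 0.105 without ozone replicate 2, 0.0900 without control replicate 2 and 0.0802 without control replicate 3. AT3G62590 (PLIP3), a plastid lipase that releases fatty acids for jasmonate synthesis, had 45.7, 31.8 and 35.5 in the controls and 52.0, 75.9 and 60.3 after ozone (log2 fold change 0.74, SE 0.227, limma adjusted p = 0.0450). Its call was lost without the filter (adjusted p = 0.0743), without ozone replicate 2 (0.159) or 3 (0.0832), and without control replicate 2 (0.150) or 3 (0.134). The log2 fold change of the related lipase gene AT1G02660 (PLIP2) was 0.42 (adjusted p = 0.197), and AIM1, a peroxisomal beta-oxidation enzyme that acts after OPCL1, had 0.08 (adjusted p = 0.891). DGL, a plastid lipase gene, was below the filter, with signals of 2.20 to 9.70 over the 6 arrays.

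Both measured genes of conjugation and turnover were below the filter. JMT, the methyltransferase that makes methyl jasmonate, had signals of 1, 0.6 and 1 in the controls and 26.3, 26.2 and 6.40 after ozone. In the fit without the filter it rose (log2 fold change 4.28, but 1.02 with 16 added to each signal; limma adjusted p = 0.00500), but its ozone signals stayed below the filter level. UGT76E1, a jasmonate glucosyltransferase, went from 0.9 to 2.6 in the controls to 2.80 to 6.00 after ozone and did not pass in that fit (adjusted p = 0.104).

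Of the 2 tested transcription factor genes of jasmonate signalling 0 passed by limma, with 0 at an unadjusted p under 0.05. With 28.0% of all tested probe sets called, 0 of 2 says little about signalling. MYC3, an activator of jasmonate responses, had 44.6, 91.0 and 91.2 in the controls and 77.6, 179.4 and 137.6 after ozone, with replicate 1 the lowest array of both groups (log2 fold change 0.79, adjusted p = 0.159). With the replicate number as a block, a fit in which 19.1% of tested probe sets were called higher, the adjusted p of MYC3 was 0.00188. For MYC4, its close relative, the log2 fold change was -0.48 (adjusted p = 0.150).

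Of 4 measured jasmonate response genes, PDF1.2b, a defensin of jasmonate and ethylene responses, was tested and did not pass (log2 fold change 1.25, limma adjusted p = 0.207; with the replicate number as a block 0.0378, or 0.0908 in the blocked fit without the filter). Its probe set may also bind other defensin transcripts, and its controls spanned 12.3 to 81.8. BSMT1, a methyltransferase that makes methyl salicylate and methyl benzoate, was below the filter but had 6.1, 2.6 and 2.5 in the controls against 81.0, 240.0 and 49.3 after ozone. Without the filter BSMT1 rose (log2 fold change 4.85, falling to 2.58 with 16 added; limma adjusted p = 0.00279). PDF1.2 and the thionin gene THI2.1 were below the filter and did not pass in that fit (adjusted p = 0.364 and 0.167).

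**Figure D4:**
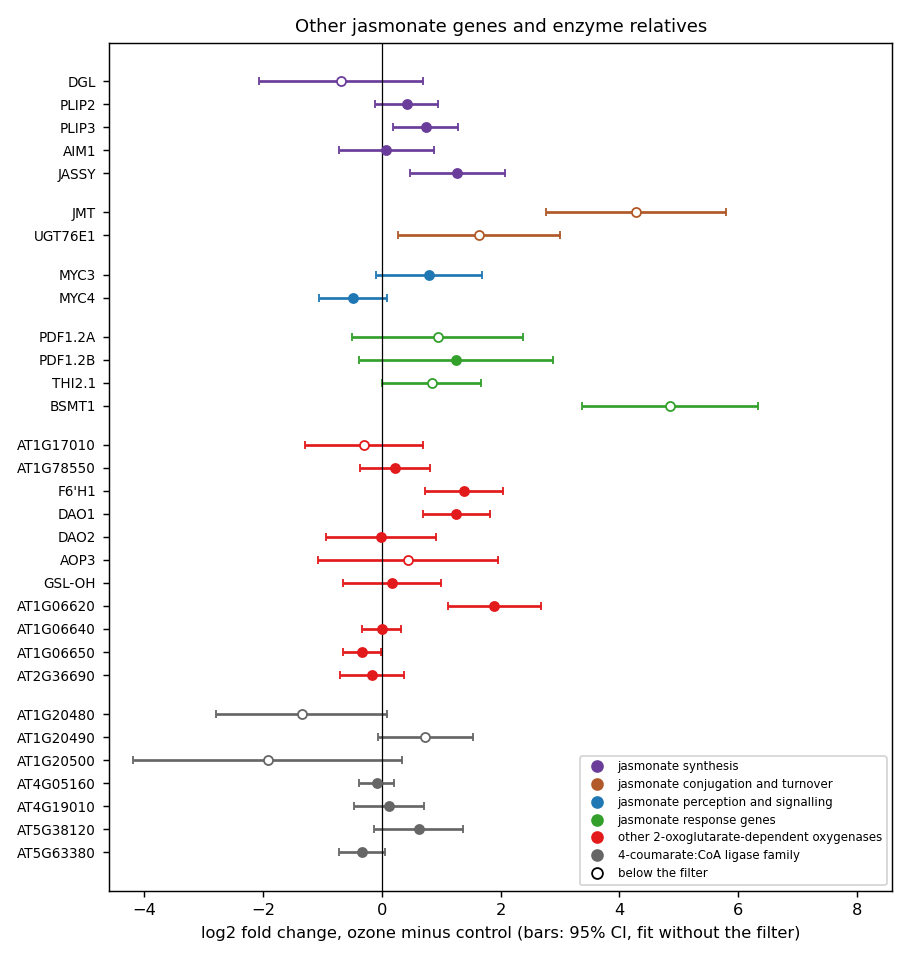
Log2 fold change (ozone minus control, bars 95% confidence interval of the fit without the filter) of the other jasmonate genes and of the enzyme relatives of the oxygenases and OPCL1, coloured by list, with open circles for genes below the filter. JMT and BSMT1 lie at 4.28 and 4.85, and the 4-coumarate:CoA ligase relatives of OPCL1 lie between -1.93 and 0.73.

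Relatives of the jasmonate oxygenases from the 2-oxoglutarate-dependent oxygenase superfamily were read beside them. Of 33 listed relatives 11 had a probe set that named them alone and 9 were tested. Of these 9, 3 rose, 0 fell and 6 did not pass, with a median log2 fold change of 0.17. Over all tested probe sets 13.0% were called higher and 14.9% lower. AT1G06620, of the ACC oxidase-like branch, had 27.1, 41.2 and 31.3 in the controls and 119.3, 191.6 and 78.6 after ozone (log2 fold change 1.89, SE 0.331, limma adjusted p = 0.00506). AT3G13610 (F6'H1), the entry enzyme of scopoletin synthesis, rose by 1.39 (adjusted p = 0.00900), and AT1G14130 (DAO1), which oxidizes auxin, rose by 1.25 (adjusted p = 0.00772). AT1G06640 and AT1G06650, which belong to the same branch as AT1G06620, had -0.0048 and -0.33 (adjusted p = 0.985 and 0.142). The log2 fold changes of JOX2, JRG21 and JOX4 were above those of the 9 tested relatives, whose highest was 1.89. JOX1, below the filter, had 0.19.

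OPCL1 belongs to the 4-coumarate:CoA ligase family, whose best known members act in lignin and flavonoid synthesis. Of 12 listed relatives 7 had a probe set and 4 were tested, and 0 of the 4 passed by limma, with 0 at an unadjusted p under 0.05. With 28.0% of all tested probe sets called, 0 of 4 says little about the family. Their median log2 fold change was 0.02, and 0 of the 7 passed in the fit without the filter. AT5G38120 (4CL8) had the smallest p (log2 fold change 0.62, adjusted p = 0.165; with the replicate number as a block 0.0258, or 0.0626 in the blocked fit without the filter). AT5G63380 and AT4G05160, which encode peroxisomal ligases, had -0.33 and -0.09 (adjusted p = 0.185 and 0.672). The 3 genes that precede OPCL1 on the chromosome, AT1G20480, AT1G20490 and AT1G20500, are family members as well. They were below the filter, with signals of 0.4 to 33.6 over the 6 arrays and log2 fold changes of -1.35, 0.73 and -1.93, of which none passed in the fit without the filter (adjusted p = 0.195, 0.205 and 0.238).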

How the data were processed

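The deposited values are MAS5 signal intensities, 1 per probe set and array, made by the authors with MAS5 per the submitters' processing notes (version not given in the sources used here). All arrays had the same mean once 2% of values were trimmed from both ends. In place of 95 zeros the lowest signal above 0 on the same array was used, 64 control probe sets were left out, and log2 signals were compared by limma 3.58.1 in R 4.3.3 (eBayes with trend, two-sided, Benjamini-Hochberg over 13648 probe sets, threshold 0.05). Exact tests used scipy 1.17.1. Means ± SD are of linear signals, and log2 fold changes are ozone minus control. Whether the replicates were separate cultures is not stated, so p-values cover only the spread between these 6 samples, possibly a technical one.

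Names came from the platform's table and, by gene identifier, the RefSeq table for TAIR10.1, used for names and gene order alone (13436 of 13513 single-gene probe sets matched). Where several measured a locus, the brightest stood for it. The 5 genes and 11 lists (148 genes) were chosen with earlier results of these data known. The rule for named genes took the 5 genes, all measured genes of the 4 jasmonate lists, the 3 smallest p of each relative list with the smallest p in the other direction, and the 3 probe sets most like each gene. Other relatives, genes below the filter and neighbours were named after their values were seen.

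Deviations from the group means, across probe sets, correlated at r = 0.747, 0.374 and 0.439 for numbers 1, 2 and 3, all above 0.1, so the titles' numbers were read as pairing the arrays. Numbers 2 and 3 were not told apart: ozone 3 correlated with control 2 at 0.412 and ozone 2 with control 3 at 0.368, while both correlated negatively with control 1. Deviations cancel out within a group, so the likeness of the arrays numbered 1 alone raises the correlations among numbers 2 and 3. Values above 0.1 at numbers 2 and 3 therefore do not show pairing, and only number 1 was set apart. The block and the folds between equal numbers take 2 and 3 from the titles. The main fit has no block, and the blocked value is given where it changes a call. For the probe sets most like each gene, no blocked values are given. The code was tested on simulated data. Alternatives were other normalizations, added constants, filters and variance models, the block, and left-out arrays. The fit without the filter combined with the block was added after the data were seen.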

Additional observations from a re-analysis of the deposited data

How the results depend on the processing

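JOX2, JOX4 and OPCL1 stayed called as higher in all 17 alternatives, and JRG21 in the 16 that tested it; at the 60th percentile filter JRG21 was left out. Adjusted p-values reached at most 0.00518 for JOX2, 0.0468 for JRG21, 0.00272 for JOX4 and 0.00325 for OPCL1, and log2 fold changes ranged from 2.49 to 3.58, 1.88 to 5.83, 3.07 to 5.35 and 1.56 to 2.26. The log2 fold change of JOX1 was -0.30 to 0.44 with single arrays left out. The replicate block raised the calls on all probe sets from 3816 to 6699 (6594 without the filter), and leaving out single arrays gave 2246 to 3690, the lowest without ozone replicate 2; control replicates 2 and 3 gave 2408 and 2273. With the block, 1 call each was made among signalling, response and 4-coumarate:CoA ligase genes (main 0), and it changed no call of the 5 genes. Leaving out both arrays numbered 1 also gave 1 signalling call. Synthesis calls (main 2) were 1 without the filter, with or without the block, 1 at the 60th percentile, and 0 to 2 with single arrays left out (0 when ozone replicate 2 or one of control replicates 2 and 3 was left out). Without the filter, with or without the block, turnover and response genes had 1 call each, and with the block signalling had 1. Of 22746 probe sets, 1897 were called higher without the filter, and 2795 with the block as well. AIM1, not called, ranged from -0.19 to 0.43 with single arrays left out, and was negative without ozone replicate 2 (-0.14), ozone replicate 3 (-0.06) or control replicate 1 (-0.19). The causes were not tested, except that filters change which genes are tested.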

Other observations

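The neighbours of the 5 genes were looked up in the RefSeq gene order (3 protein-coding genes on either side), a choice made after the values were seen. JOX1 lies between FAD7, a plastid desaturase that makes linolenic acid, and AL2, and JOX2 lies next to AL1 with FAD8, the paralog of FAD7, within 3 genes on the other side. The desaturase and AL genes were not analysed here. AT2G38250, a trihelix transcription factor gene that follows JOX4, was below the filter, with signals of 1.4, 0.8 and 0.6 in the controls and 45.4, 99.7 and 27.9 after ozone. In the fit without the filter its log2 fold change was 5.84 (SE 0.582, limma adjusted p = 0.000941), or 2.00 with 16 added to every signal. AT3G55960, which precedes JRG21, rose from 126 ± 4.25 to 188 ± 14.0 (SD, n = 3 each; log2 fold change 0.58, limma adjusted p = 0.0211). AT3G55940, on the same side of JRG21, was below the filter and lower after ozone without overlap (log2 fold change -0.64, limma adjusted p = 0.147 in the fit without the filter). AT1G20520, which follows OPCL1, had signals of 6.80 to 13.5 over the 6 arrays, and AT1G20540, within 3 genes of OPCL1, was lower without overlap (log2 fold change -0.43, limma adjusted p = 0.111, and 0.0427 with the replicate number as a block). AT3G11210, close to JOX1, had 0.03 on the log2 scale (adjusted p = 0.951). Of the genes looked up around JOX2, none had a probe set that named it alone.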
